A study of Mus musculus with 18 samples.

Results

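Dura mater taken 2 days after an experimental stroke was compared between mast cell-engrafted and mast cell-deficient mice. The arrays were chosen by their titles, 3 labelled as engrafted with stroke and 3 labelled as deficient with stroke, which makes 6 of the 18 arrays of the study. The engrafted mice were WBB6F1-KitW/W-v males that carry mutant W and W-v Kit alleles and had been given mast cells intravenously 8 to 10 weeks earlier. The deficient mice were males of the same genotype without the cells. Wild-type males of the WBB6F1-Kit+/+ strain with stroke, and naive mice of each of the 3 categories, 3 arrays a group, give the surrounding values. All mice were 17 to 21 weeks old, the stroke was a blockage of the middle cerebral artery that lasted 30 minutes and was made by a filament, and each dura was hybridised to its own Affymetrix array. The animals had been perfused with buffered saline before the dura was lifted. No sham-operated group was analysed here. The Kit alleles were present in the host cells of both compared groups, while a comparison with wild type also includes the Kit genotype. From which tissue or culture the transferred cells came is not given in the sources used here.

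Mast cells are tissue-resident immune cells that need signalling through the receptor Kit to develop and survive. They store proteases, histamine and other mediators in granules, carry the high-affinity receptor for IgE, and release their contents when activated. The dura, the outer membrane around the brain, is one of the tissues in which they are normally abundant. In Kit-mutant mice mast cells are missing, and transferred cells can settle in some tissues and not in others. The study asked how mast cells in the meninges influence the response to stroke.

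The values are log2 levels per probe set, so a difference of 1 is a 2-fold change. Medians of the arrays ranged from 7.77 to 7.91. Across probe sets, r was 0.984 to 0.997 between arrays within a group and 0.986 to 0.996 between engrafted and deficient stroke arrays. Precision is limited by the number of arrays, with a median standard error (SE) of 0.0959 for a difference between 2 groups. Where the mean of a group was under the lower quartile of each of the arrays (6.09 at its lowest), the transcript was not shown to be above background there, and a difference from that group is a lower bound. Mean levels of marker lists for tissues other than the dura differed between arrays. The choroid plexus list averaged 11.15, 11.01 and 9.85 in the engrafted stroke arrays, against 11.36, 8.97 and 11.33 in the deficient ones. A neuron list averaged 10.57, 10.09 and 10.79 in engrafted dura, against 9.76, 10.53 and 10.32 in deficient dura. A skeletal muscle list stood at 8.67 in deficient array 3 and at 7.39 to 7.71 in the other 5 arrays of the comparison. Array numbers here are those of the titles.

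In stroke dura, 6 transcripts differed between engrafted and deficient mice among 21640 tested probe sets, which is 0.0277% of them, with 5 higher and 1 lower in engrafted dura. The transcripts that rose were the mast cell chymases Mcpt2 and Mcpt4, mast cell carboxypeptidase Cpa3, the IgE receptor chain Fcer1a, and Mmp3, the matrix metalloproteinase stromelysin 1. The transcript that fell was Slc6a14, an amino acid transporter. These calls are from limma with Benjamini-Hochberg adjustment and a threshold of 0.05. Without adjustment 1359 probe sets (6.28%) had a p under 0.05, 678 higher and 681 lower, against 1082 expected if nothing differed. The count of 6 ranged from 4 to 39 when 1 array was left out. It was 39 without engrafted array 1 and 10 without engrafted array 2. With only the 6 compared arrays in the fit 4 passed, namely Mcpt2, Cpa3, Mcpt4 and Tpsb2, and with the choroid plexus and neuron levels as covariates 14 passed.

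**Figure D1:**
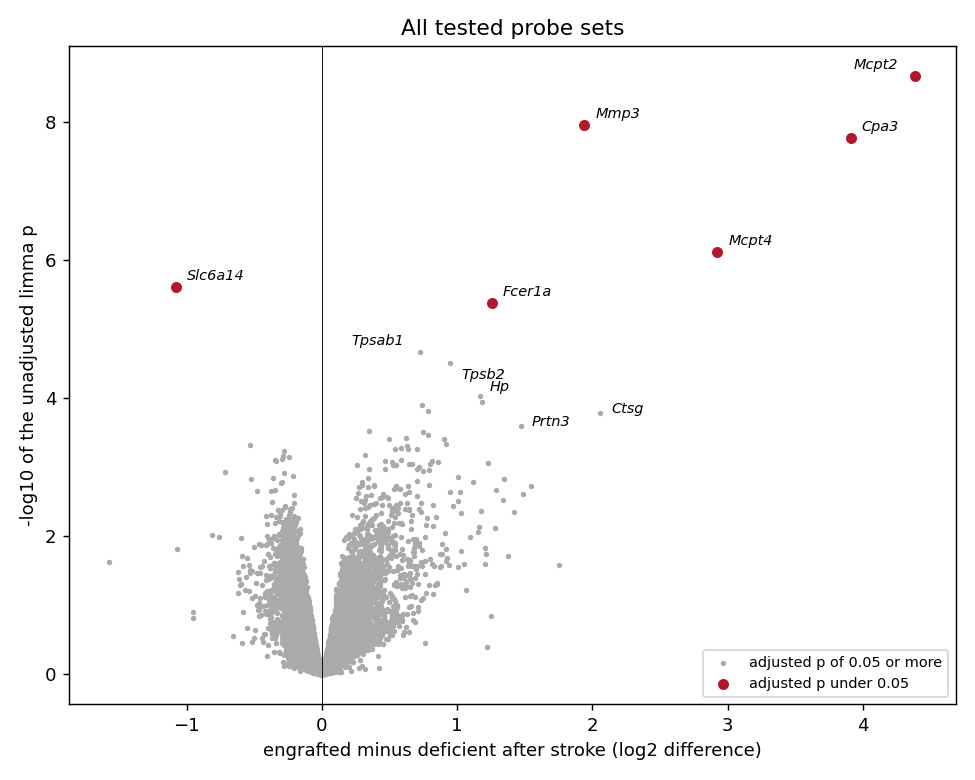
Each point is 1 of 21640 tested probe sets, with the log2 difference (engrafted minus deficient, stroke dura) across and the negative log10 of the unadjusted limma p up. The 6 probe sets with an adjusted p under 0.05 are red, 5 of them to the right and Slc6a14 to the left, and named grey points are genes described in the text that did not pass.

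Of the 6 called genes, 5 have an entry in the RefSeq promoter table for GRCm38.p6, and the 120 bases before each gene start of that table are shown so that the mast cell genes can be set beside the other called transcripts. Mcpt2 is only named. The first set holds the mast cell genes with GATAA in capitals, the core that GATA factors recognise, searched on both strands (TTATC is the same core on the other strand). The second set holds the other called genes with TGANTCA in capitals, the core bound by AP-1, which reads the same on both strands and does not overlap GATAA. Both motifs were picked after it was known which genes were called. GATAA on either strand was present in 10.5% of the 32851 windows of this length in the table and TGANTCA in 3.41%. A match is a string of letters and was not tested as a binding site.
Cpa3, chr3:20242182-20242301, minus strand: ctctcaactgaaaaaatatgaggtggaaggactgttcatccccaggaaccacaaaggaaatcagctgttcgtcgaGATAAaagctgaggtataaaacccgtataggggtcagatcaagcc
Mcpt4, chr14:56062311-56062430, minus strand: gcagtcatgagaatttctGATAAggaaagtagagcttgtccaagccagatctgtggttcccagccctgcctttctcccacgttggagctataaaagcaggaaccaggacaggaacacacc
Fcer1a, chr1:173227230-173227349, minus strand: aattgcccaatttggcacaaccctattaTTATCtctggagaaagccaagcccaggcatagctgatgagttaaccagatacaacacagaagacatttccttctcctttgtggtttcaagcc
Mmp3, chr9:7445702-7445821, plus strand: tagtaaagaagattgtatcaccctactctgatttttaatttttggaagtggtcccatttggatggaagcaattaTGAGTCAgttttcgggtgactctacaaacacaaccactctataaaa
Slc6a14, chrX:21714780-21714899, plus strand: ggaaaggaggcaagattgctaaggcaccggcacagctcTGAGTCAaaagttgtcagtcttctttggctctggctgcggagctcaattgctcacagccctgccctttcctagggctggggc
The GATAA core begins 45 bases before the gene start in Cpa3, 102 in Mcpt4 and 92 in Fcer1a. TGAGTCA begins 46 bases before the start of Mmp3 and 82 before that of Slc6a14.

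Granule proteases gave the largest differences. Mcpt2 (probe set 10415438, chromosome 14) had log2 levels of 9.61, 9.99 and 9.72 in engrafted stroke dura, against 5.44, 5.42 and 5.31 in deficient stroke dura. It stood at 9.60, 9.28 and 8.80 in wild-type stroke dura. Every engrafted array lay far above every deficient array and in or above the range of the wild-type arrays, and the difference was at least 4.39 ± 0.36 (SE, n = 3 each, limma adjusted p = 4.62e-05). Cpa3 (probe set 10497451, chromosome 3), which trims peptides in the granule, had 9.47, 9.79 and 9.70 in engrafted and 5.67, 5.82 and 5.74 in deficient arrays, beside 9.17, 9.29 and 8.39 in wild type. It rose by at least 3.91 ± 0.37 (adjusted p = 0.000124). For Mcpt4 (probe set 10420247, chromosome 14), the chymase of connective tissue mast cells, engrafted arrays held 8.66, 8.75 and 8.87, deficient arrays 5.68, 5.88 and 5.94 and wild-type arrays 8.53, 8.59 and 7.96. The groups did not overlap, and the difference was at least 2.92 ± 0.37 (adjusted p = 0.00408). All 3 genes passed under each of the 16 alternatives run. Deficient means of these genes were not shown to be above background. In bulk tissue, more cells of a type and more RNA per cell cannot be told apart.

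The remaining granule genes had smaller differences, and none of them passed. Of the 17 measured members of the granule list, 3 rose, 0 fell and 14 did not pass, which compares with 0.0231% of all probe sets rising. Without overlap between the groups, 8 of the 17 were higher in engrafted dura, against 3.81% of all probe sets. The list's median difference was 0.30, beside -0.02 over all probe sets. Of the 14 that did not pass, Ctsg, cathepsin G, had the largest difference, 2.06 ± 0.42 (adjusted p = 0.274). It is described below with the granulocyte precursor genes. The tryptases Tpsb2 and Tpsab1 had the smallest p of the 14. Tpsb2 had 8.36, 8.44 and 8.34 in engrafted and 7.41, 7.41 and 7.48 in deficient arrays, a difference of 0.95 ± 0.16 (adjusted p = 0.0825). Tpsab1 had 7.83, 7.88 and 7.51 in engrafted and 6.80, 7.10 and 7.14 in deficient arrays, a difference of 0.73 ± 0.12 (adjusted p = 0.0666). Both tryptases passed with array weights (adjusted p = 0.0451 each), Tpsab1 also without engrafted array 3 (0.031) and Tpsb2 with only the compared arrays (0.00859). Cma1, a further chymase, differed by 0.80 ± 0.19 (adjusted p = 0.441), with 7.26, 7.39 and 7.40 in engrafted and 6.42, 6.61 and 6.63 in deficient arrays. Hdc, which makes histamine, differed by 0.30 ± 0.14 and Slc18a2, which loads amines into granules, by 0.20 ± 0.10, with adjusted p of 0.784 and 0.804. The proteoglycan core Srgn and the heparin-modifying enzyme Ndst2 differed by 0.18 ± 0.08 and 0.05 ± 0.08. The proteases Mcpt8, Gzmb, Tpsg1 and Mcpt1 lay between -0.04 and 0.16 and their groups overlapped. Mcpt8 is a basophil protease. Ctse, a cathepsin, had 0.89 ± 0.32 (adjusted p = 0.752) and Tph1, which starts serotonin synthesis and is also made in the pineal gland, -0.20 ± 0.15.

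Among 22 measured receptor and identity genes of mast cells, 1 rose, 0 fell and 21 did not pass, beside 0.0231% of all probe sets rising. Without overlap 9 of the 22 were higher, against 3.81% of all probe sets, and the median difference was 0.16. The one that rose was Fcer1a (probe set 10360338, chromosome 1), the alpha chain that binds IgE. Its levels were 6.72, 7.13 and 6.81 in engrafted dura, against 5.71, 5.51 and 5.67 in deficient dura and no more than 6.32 in any wild-type array. The difference was at least 1.26 ± 0.18 (adjusted p = 0.0152). This call was lost when any array other than engrafted array 1 was left out (adjusted p of 0.0685 to 0.149), with only the compared arrays in the fit (0.0704) and with a minimum change of 1.5-fold. Engrafted arrays all lay above the wild-type arrays for this gene, with a difference of 0.74 ± 0.18 that did not pass (adjusted p = 0.102). The other receptor chains Fcer1g, shared with further Fc receptors, and Ms4a2, the beta chain, differed by 0.25 ± 0.10 and 0.22 ± 0.07 (adjusted p = 0.778 and 0.727), and Ms4a2 was not shown above background in either group.

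Kit (probe set 10522530) had 9.29, 8.76 and 9.32 in engrafted and 8.63, 8.76 and 8.71 in deficient stroke dura, beside 9.17, 8.92 and 8.80 in wild type. Array 2 of both compared groups stood at 8.76, and the difference of 0.43 ± 0.15 did not pass (adjusted p = 0.749). Other cells of the dura can express Kit, and the position of the probes on the mutant transcripts is not used here, so the level is no check of the labelled genotype. Slc6a4, the serotonin transporter, which platelets also express, had 7.72, 7.99 and 8.33 in engrafted and 7.15, 7.15 and 7.64 in deficient arrays, with a difference of 0.70 ± 0.16 (adjusted p = 0.437). The Mas-related receptors Mrgprb1, Mrgprb2 and Mrgprx2 differed by at least 0.68 for the first, and by 0.44 and 0.28 for the others, which were not shown above background in either group. Mrgprb2 is the mouse receptor for basic secretagogues. Milr1, an inhibitory receptor, differed by 0.43 ± 0.22 and Alox5, which starts leukotriene synthesis, by 0.24 ± 0.13, both without overlap and without passing. Mitf, the transcription factor of mast cells and melanocytes, had the lowest value of the list, -0.48 ± 0.21 (adjusted p = 0.778), with 11.47 in deficient array 2 and 10.10 to 10.65 in the other 5. Gata1, Gata2, Hpgds, Ltc4s, Cd63, Siglecf, Cd200r3, Rab27b, Kitl, Gnaz and Maob lay between -0.24 and 0.19 and overlapped between the groups.

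**Figure D2:**
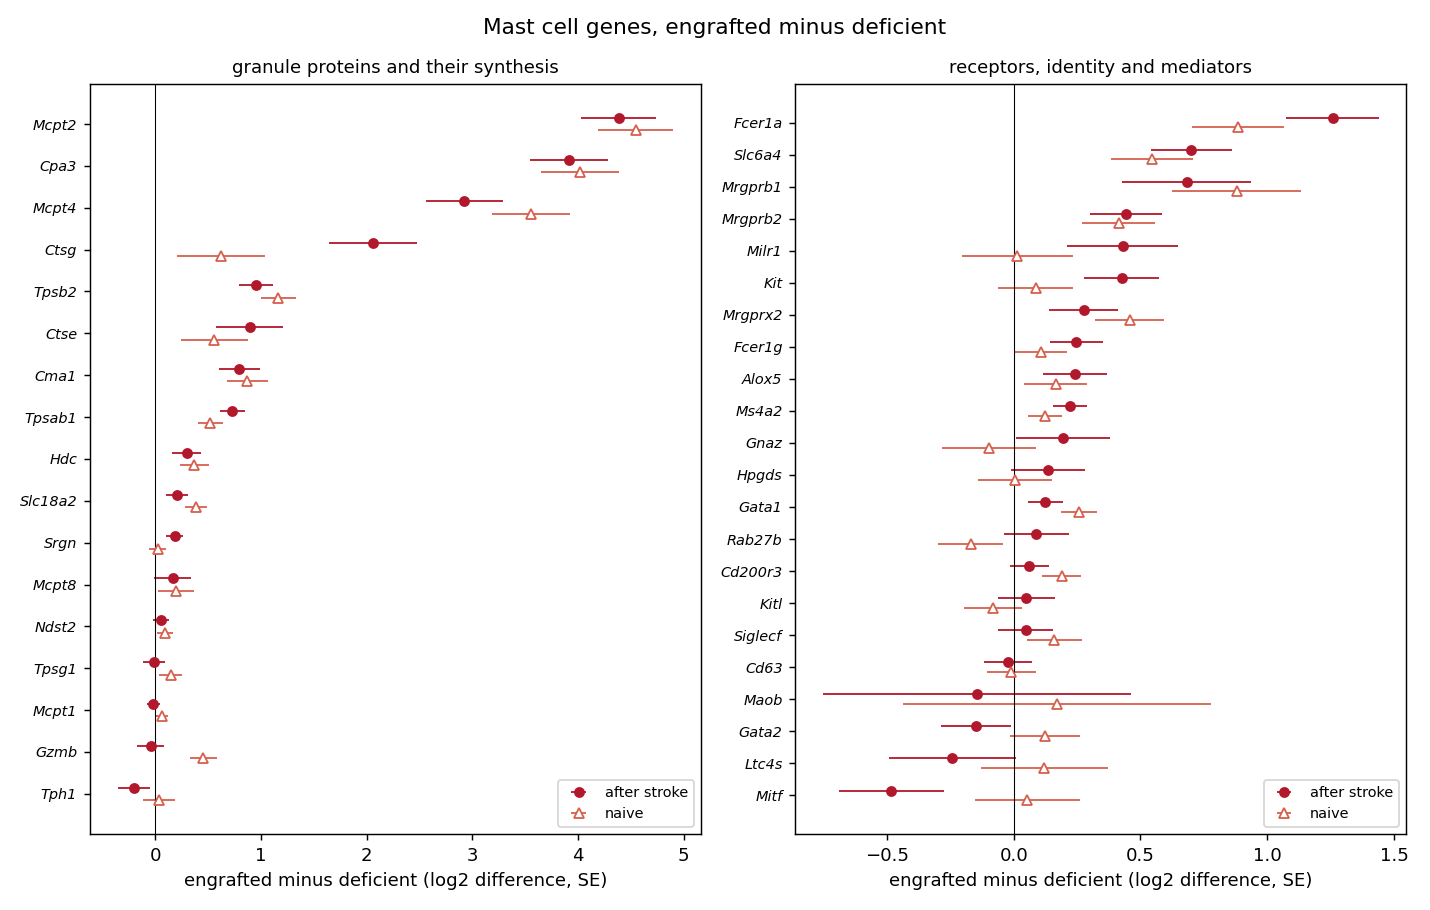
Log2 difference between engrafted and deficient dura, with its SE, for 39 mast cell genes after stroke (filled circles) and in naive dura (open triangles), granule genes left and receptor and identity genes right, each sorted by the value after stroke. Mcpt2, Cpa3 and Mcpt4 stand at 4.39, 3.91 and 2.92 after stroke and at 4.54, 4.02 and 3.55 in naive dura, all lower bounds, and the x axes of the panels differ.

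The same contrast in naive dura called 4 probe sets (0.0185%), all higher in engrafted dura and all granule proteases, namely Mcpt2, Cpa3, Mcpt4 and Tpsb2. Naive engrafted arrays were more spread than stroke engrafted arrays, with Mcpt2 at 10.77, 9.40 and 8.64, and with Cpa3 at 10.90, 9.67 and 8.76. Fcer1a stood at 7.06, 6.30 and 6.06 in naive engrafted dura against 5.57, 5.63 and 5.57 in naive deficient dura, a difference of at least 0.88 ± 0.18 that did not pass (adjusted p = 0.512). Whether the engrafted minus deficient difference was another after stroke than in naive dura was tested as an interaction, and 1 probe set of 21640 (0.00462%) passed, Mmp3. Unadjusted, 2097 had a p under 0.05. For Mcpt2, Cpa3, Mcpt4 and Fcer1a the deficient means were not shown above background either after stroke or in naive dura, so both differences are lower bounds and no size of the interaction is given. With only the compared arrays in the limma fit, 0 probe sets passed in naive dura (1141 at an unadjusted p under 0.05) and 0 in the interaction (2073 unadjusted).

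**Figure D3:**
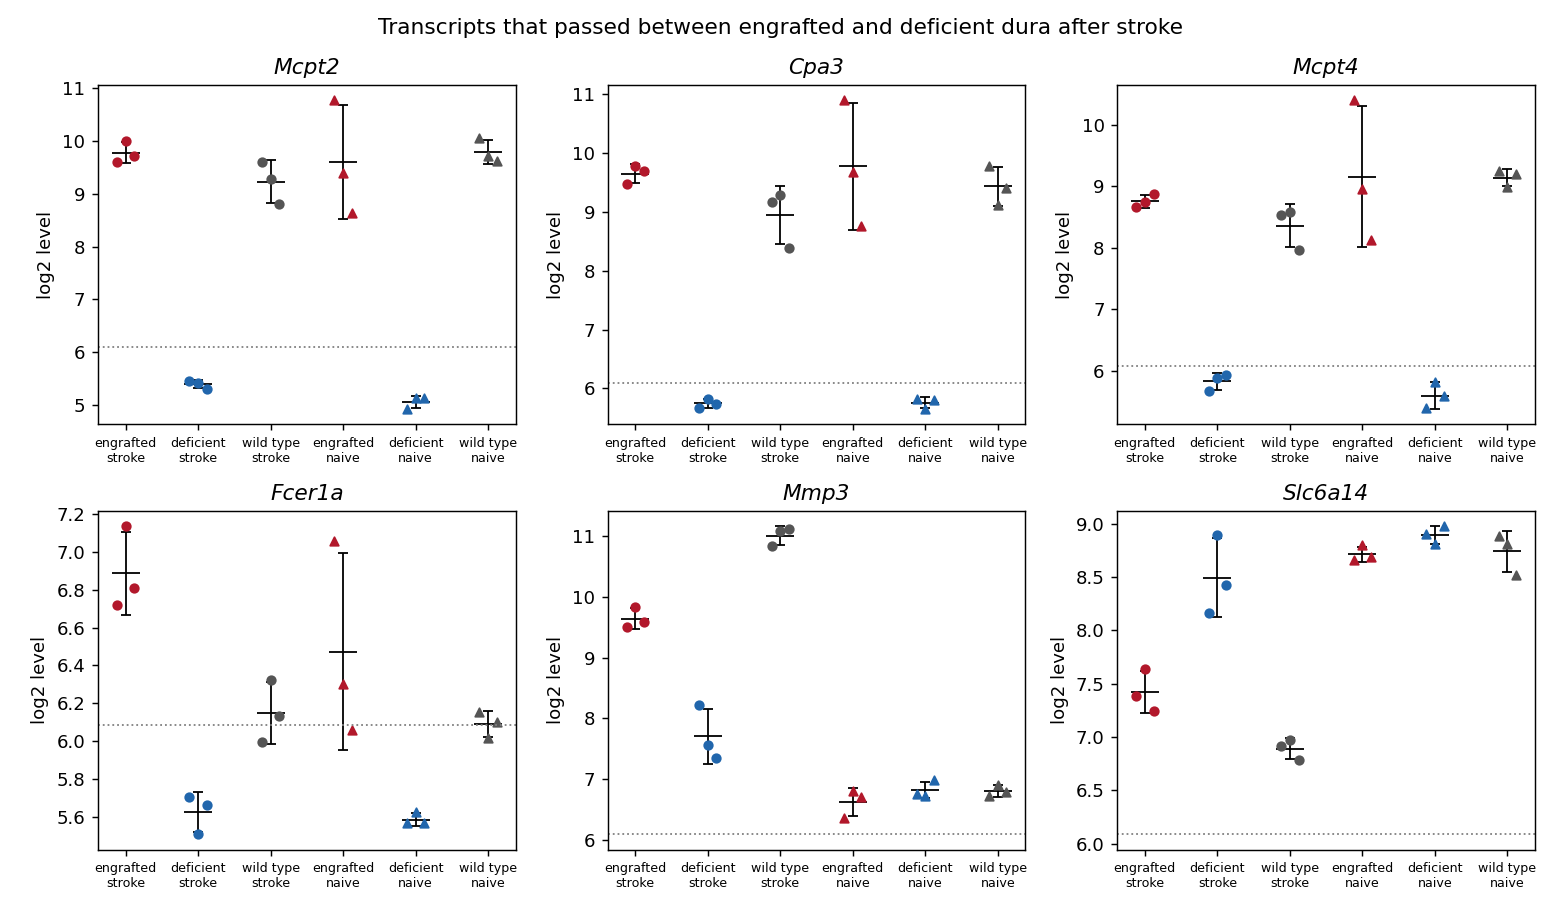
Log2 level of the 6 called transcripts in every array, with the mean and SD of each group of 3, for stroke dura (circles) and naive dura (triangles). The dotted line is the lowest array lower quartile, 6.09. Deficient arrays lie under it for Mcpt2, Cpa3, Mcpt4 and Fcer1a, while the naive arrays of the 3 categories lie close together for Mmp3 and Slc6a14, and engrafted stroke arrays lie between the other stroke groups for both.

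Mmp3 (probe set 10583071, chromosome 9) degrades proteoglycans and other matrix and can activate further metalloproteinases. It is made by fibroblasts and other stromal cells and is not a mast cell marker. Its levels were 9.51, 9.84 and 9.59 in engrafted stroke dura, against 8.21, 7.56 and 7.34 in deficient stroke dura, and it stood at 10.83, 11.09 and 11.12 in wild-type stroke dura. No arrays of these 3 groups overlapped, and the engrafted ones lay between the others. Mmp3 rose by 1.94 ± 0.18 in engrafted over deficient dura, which is 3.84-fold (adjusted p = 0.00012). It was lower in engrafted than in wild-type dura by 2.58-fold, a difference of -1.37 ± 0.18 (adjusted p = 0.00214). In naive dura the arrays held 6.36, 6.81 and 6.70 in engrafted, 6.76, 6.73 and 6.98 in deficient and 6.72, 6.91 and 6.79 in wild-type mice, with a difference between engrafted and deficient of -0.20 ± 0.18 (adjusted p = 0.935). The interaction was 2.14 ± 0.25 (adjusted p = 0.00683). With only the compared arrays in the fit the Mmp3 difference after stroke no longer passed (adjusted p = 0.149), and it passed under each of the other 15 alternatives. With the choroid plexus and neuron levels as covariates the estimate was 2.05.

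Among 19 measured matrix metalloproteinases and their inhibitors, 1 rose, Mmp3, 0 fell and 18 did not pass, and 7 were higher without overlap, against 3.81% of all probe sets. The median difference was 0.27. Mmp8, the neutrophil collagenase, had 8.09, 8.70 and 9.37 in engrafted and 7.78, 7.40 and 6.95 in deficient arrays, a difference of 1.34 ± 0.38 (adjusted p = 0.654). Adamts4, an aggrecanase, differed by 0.51 ± 0.18 and Adam8, a leukocyte sheddase, by 0.29 ± 0.11, with adjusted p of 0.749 and 0.775. Against wild-type dura, Adamts4 had -0.69 in engrafted dura, which did not pass (adjusted p = 0.112), and Adam8 had -0.55, which passed (adjusted p = 0.0388). Plat, the tissue plasminogen activator, had 11.15, 10.89 and 10.99 in engrafted dura, against 10.59, 10.65 and 10.75 in deficient dura and 11.38, 11.49 and 11.56 in wild-type dura. Its difference of 0.35 ± 0.07 from deficient dura did not pass (adjusted p = 0.412), while that from wild type, -0.47, passed (adjusted p = 0.0103). Serpinb1a, an inhibitor of neutrophil proteases, was placed in the same way, with 9.49, 10.00 and 9.93 in engrafted, 9.25, 9.08 and 8.88 in deficient and 10.41, 10.51 and 10.72 in wild-type arrays. It differed by 0.74 ± 0.15 from deficient (adjusted p = 0.245, which was 0.0181 without engrafted array 1 and 0.0212 with covariates) and by -0.74 from wild type (adjusted p = 0.0397). The lubricant proteoglycan Prg4 had 12.45, 12.33 and 12.24 in engrafted, 12.07, 11.67 and 11.87 in deficient and 12.95, 13.06 and 13.15 in wild-type dura, with 0.47 ± 0.12 against deficient (adjusted p = 0.466) and -0.72 against wild type (adjusted p = 0.0112). Not all of the 15 higher genes with the smallest p lay between deficient and wild-type dura. Engrafted means exceeded wild-type means for Hp (8.91 against 8.31), Plac8 (8.61 against 8.18) and Prtn3 (8.69 against 7.37). This also held for Slfn4, Bin2, Mcpt2, Cpa3, Mcpt4, Fcer1a, Tpsb2 and Ctsg, and none of these differences from wild type passed. The mean of Tpsab1 was below that of wild type (7.74 against 7.96), as were those of Mmp3, Plat and Serpinb1a.

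Slc6a14 (probe set 10599008, X chromosome), a transporter that carries neutral and cationic amino acids into epithelial cells, was the one transcript that fell. It had 7.38, 7.63 and 7.24 in engrafted stroke dura, against 8.17, 8.89 and 8.42 in deficient stroke dura. Wild-type stroke dura held 6.91, 6.97 and 6.79, below every engrafted array. The naive arrays of all 3 categories lay between 8.52 and 8.97. The difference was -1.08 ± 0.15, so the engrafted level was 2.11-fold lower (adjusted p = 0.0105). The call was lost without engrafted array 3 or deficient array 3 (adjusted p = 0.0698 and 0.0526), with only the compared arrays in the fit (0.858) and with a minimum change of 1.5-fold. Against wild type the engrafted value of 0.53 ± 0.15 did not pass (adjusted p = 0.143), and the interaction, -0.89 ± 0.21, did not pass (adjusted p = 0.51).

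The next 14 genes with the smallest p among the lower ones did not pass, with differences of -0.22 to -0.72 and adjusted p of 0.437 to 0.557. Egfl6, a secreted matrix protein, had 7.34, 7.22 and 6.87 in engrafted dura, against 7.65, 7.66 and 7.72 in deficient and 6.62, 6.67 and 6.63 in wild-type dura, a difference of -0.53 ± 0.12. Pla2g2d, a secreted phospholipase of lymphoid tissue, had 8.84, 8.61 and 8.63 in engrafted, 9.14, 9.54 and 9.55 in deficient and 8.47, 8.12 and 7.91 in wild-type arrays, with -0.72 ± 0.18. Cd209d, a lectin of the DC-SIGN family, had -0.52 ± 0.14, with 7.20, 7.28 and 7.10 in engrafted and 7.52, 7.95 and 7.68 in deficient arrays. Agr2, a secretory pathway disulphide isomerase, had -0.28 ± 0.07. In each of these 4 genes the engrafted arrays lay between the deficient and the wild-type arrays. Differences from deficient dura are also given for Entpd2, an ectonucleotidase (-0.28), B4galnt3, a glycosyltransferase (-0.29), Engase, which trims free glycans (-0.24), Mill1, a class I-like protein (-0.29), Pkdcc, a secreted kinase of the skeleton (-0.35), and Tmem86a, a lysoplasmalogenase (-0.29). Gm10706, Prl8a8 and Vmn1r85 were not shown above background in either group, and 4933421I07Rik had -0.31. The lower genes were not all placed between deficient and wild-type dura. Engrafted means were below wild-type means for Mill1 (6.72 against 6.93), Engase (8.28 against 8.34) and Pkdcc (9.37 against 9.40). They were slightly above them for B4galnt3 (7.716 against 7.712) and Entpd2 (8.12 against 8.08).

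**Figure D4:**
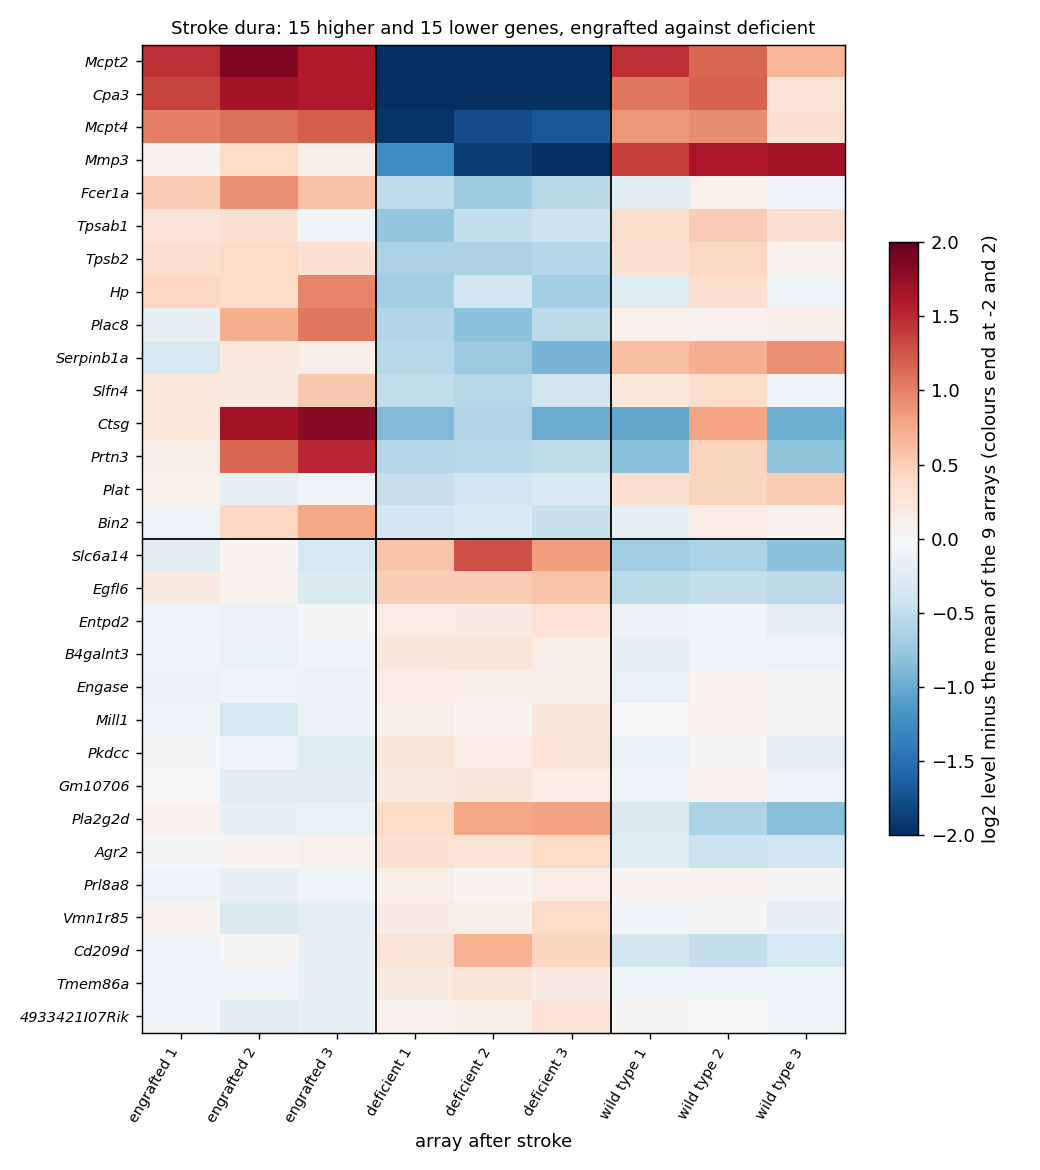
Colours give the log2 level of the 15 higher and 15 lower genes of the naming rule in each stroke array, minus the mean of the 9 arrays (red above, blue below, ending at -2 and 2). Only the first 5 genes of the upper block and the first gene of the lower block passed. Engrafted and deficient columns of these genes were chosen for their difference, and the wild-type columns were not used in the choice.

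Genes of granulocytes and their precursors had positive differences that did not pass the test. Of the 12 granulocyte precursor genes 0 passed, while 12 of 12 had a positive difference, beside 9024 of all 21640 probe sets. Without overlap 10 were higher, against 3.81% of all probe sets, and the median of the 12 was 1.25. Their mean level was 8.68, 9.32 and 9.90 in engrafted arrays, against 8.15, 8.00 and 8.32 in deficient arrays and 8.14, 9.24 and 8.22 in wild-type arrays. Engrafted array 3 was highest and wild-type array 2 lay close to engrafted array 2. Ctsg, cathepsin G, which mast cells and granulocyte precursors both make, had 8.88, 10.34 and 10.49 in engrafted and 7.79, 8.07 and 7.68 in deficient arrays, with 7.64, 9.47 and 7.70 in wild type. Its difference was 2.06 ± 0.42 (adjusted p = 0.274). Prtn3, proteinase 3, had 7.89, 8.90 and 9.27 in engrafted and 7.19, 7.21 and 7.25 in deficient arrays, a difference of 1.47 ± 0.31 (adjusted p = 0.388). The iron-binding granule proteins Lcn2 and Ltf differed by 1.01 ± 0.26 and 1.34 ± 0.35 (adjusted p = 0.527 and 0.54). Without engrafted array 1, 4 of the 12 precursor genes passed, beside 39 of all 21640 probe sets. These were Ctsg and Prtn3 (adjusted p = 0.0136 each), Ms4a3 (0.0197) and Elane (0.0375). The last 2 are named after their values were seen. With the choroid plexus and neuron covariates 1 of the 12 passed, Ctsg (adjusted p = 0.0411), beside 14 of all probe sets.

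Mature neutrophil genes had 0 of 16 passing and 16 of 16 positive differences, beside 9024 of all 21640 probe sets. They had 11 higher without overlap (3.81% of all probe sets) and a median of 0.48. Their mean was 7.71, 8.02 and 8.37 in engrafted, 7.49, 7.33 and 7.37 in deficient and 7.90, 8.36 and 8.15 in wild-type stroke arrays. Ly6g, the neutrophil surface antigen, differed by 1.29 ± 0.35 and the chemokine receptor Cxcr2 by 1.01 ± 0.29 (adjusted p = 0.588 and 0.666). Further genes among the 15 with the smallest p were the acute phase protein Hp, with 8.74, 8.69 and 9.29 in engrafted and 7.63, 7.94 and 7.63 in deficient arrays and 1.17 ± 0.22 (adjusted p = 0.224), and Slfn4, a myeloid gene of the Schlafen family, with 0.78 ± 0.16 (adjusted p = 0.272). Plac8, found in myeloid cells, had 1.18 ± 0.23 (adjusted p = 0.242) and Bin2, a membrane-shaping protein of blood cells, 0.74 ± 0.16 (adjusted p = 0.412), and both were highest in engrafted array 3. Without engrafted array 1 Plac8 and Bin2 passed (adjusted p = 0.00156 and 0.00825), and with the covariates Hp passed (adjusted p = 0.00723). Of the 16 neutrophil genes 1 passed without engrafted array 1, beside 39 of all 21640 probe sets. It was the lectin receptor Clec4e (adjusted p = 0.0221), named after its value was seen.

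Other blood lineages had the same order of engrafted arrays. Of 12 erythroid genes 0 passed and 12 had positive differences, beside 9024 of all 21640 probe sets. Without overlap 4 of the 12 were higher, against 3.81% of all probe sets. The median was 0.45, with means of 8.19, 8.56 and 9.10 in engrafted, 7.96, 7.94 and 8.17 in deficient and 7.88, 7.91 and 7.80 in wild-type arrays. Slc4a1, the anion exchanger of red cells, had 9.04, 9.64 and 10.73 in engrafted and 8.47, 8.55 and 8.93 in deficient arrays, with 1.16 ± 0.38 (adjusted p = 0.749). Rhag, a red cell membrane channel, differed by at least 1.28 ± 0.42 (adjusted p = 0.749). Of 7 megakaryocyte and platelet genes 0 passed and 7 were positive, beside 9024 of all 21640 probe sets. Without overlap 0 of the 7 were higher, against 3.81% of all probe sets. Their median was 0.27, with means of 8.59, 8.73 and 9.23 in engrafted and 8.23, 8.37 and 8.76 in deficient arrays. The platelet chemokine Ppbp had 1.21 ± 0.49 (adjusted p = 0.775). Of 8 eosinophil genes 0 passed, among them the major basic protein Prg2 with 7.55, 9.03 and 9.59 in engrafted and 7.92, 7.68 and 7.56 in deficient arrays (1.00 ± 0.41, adjusted p = 0.776). Without engrafted array 1, 1 eosinophil gene passed, the ribonuclease Ear6 (adjusted p = 0.0299), beside 39 of all 21640 probe sets. Positive medians were also seen in naive dura, with no member passing. They were 0.34, 0.26 and 0.22 for the erythroid, platelet and eosinophil lists, beside 0.02 over all probe sets. The precursor and neutrophil lists had 0.59 and 0.28 there. Naive engrafted array 3 was the highest of its group in each of these lists. In stroke dura, engrafted array 3 was highest and array 1 lowest in each of the lists named here. Deficient stroke array 3 was highest of its group in the precursor, erythroid and platelet lists. The part that these arrays' blood and marrow transcripts play in the other differences was not tested.

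Proliferation genes had no call either, where 0.0277% of all probe sets were called. Of 23 cell cycle genes 0 passed and 18 had an unadjusted p under 0.05 and were higher, against 3.13% of all probe sets, with a median of 0.53. Without overlap 2 of the 23 were higher, against 3.81% of all probe sets. Their mean was 8.30, 8.99 and 9.07 in engrafted, 8.51, 8.40 and 7.91 in deficient and 9.19, 9.20 and 8.83 in wild-type arrays, so engrafted array 1 stood below deficient arrays 1 and 2. Mcm5, a helicase subunit of replication, had 8.49, 8.98 and 9.14 in engrafted and 8.39, 8.41 and 8.10 in deficient arrays, with 0.57 ± 0.15 (adjusted p = 0.578), and it passed without engrafted array 1 (adjusted p = 0.0451). Rrm2, which makes deoxynucleotides, differed by 0.91 ± 0.31 and Ccne1, cyclin E1, by 0.33 ± 0.11 (adjusted p = 0.749 each).

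Monocyte and macrophage genes had 0 of 22 passing, 8 higher without overlap (3.81% of all probe sets) and a median of 0.22, with a mean of 9.45, 9.57 and 9.76 in engrafted, 9.30, 9.24 and 9.30 in deficient and 9.60, 9.69 and 9.48 in wild-type arrays. The list mean of every engrafted array lay above that of every deficient array. Itgam, the CD11b integrin chain of myeloid cells, had 9.21, 9.52 and 9.85 in engrafted and 8.97, 9.04 and 8.82 in deficient arrays, with 0.58 ± 0.13 (adjusted p = 0.437), and it passed without engrafted array 1 (adjusted p = 0.0221), as did Plac8 of the same list. With the covariates 1 of the list passed, beside 14 of all 21640 probe sets. It was the scavenger receptor Msr1 (adjusted p = 0.0402), named after its value was seen. Chil3, a chitinase-like protein of myeloid cells, differed by 1.55 ± 0.41 (adjusted p = 0.568) and Vcan, a matrix proteoglycan that monocytes also make, by 0.55 ± 0.15 (adjusted p = 0.575). Vcan had -0.33 ± 0.15 in naive dura. Genes of MHC class II, which present antigen to T cells, all had negative differences, 8 of 8, beside 12616 of all 21640 probe sets. Of these genes 0 passed, the median was -0.23 and 1 was lower without overlap, against 6.1% of all probe sets. H2-Aa had 11.10, 11.43 and 11.03 in engrafted dura, against 11.41, 11.51 and 11.45 in deficient and 10.94, 10.84 and 10.65 in wild-type dura, a difference of -0.27 ± 0.13 (adjusted p = 0.797). H2-Eb1, H2-Ab1 and the invariant chain Cd74 differed by -0.26, -0.26 and -0.27. The T and NK cell list had 0 of 16 passing and a median of -0.11, with the T cell receptor subunit Cd3e at -0.22 ± 0.11 and the killer cell granule protein Nkg7 at 0.64 ± 0.26.

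**Figure D5:**
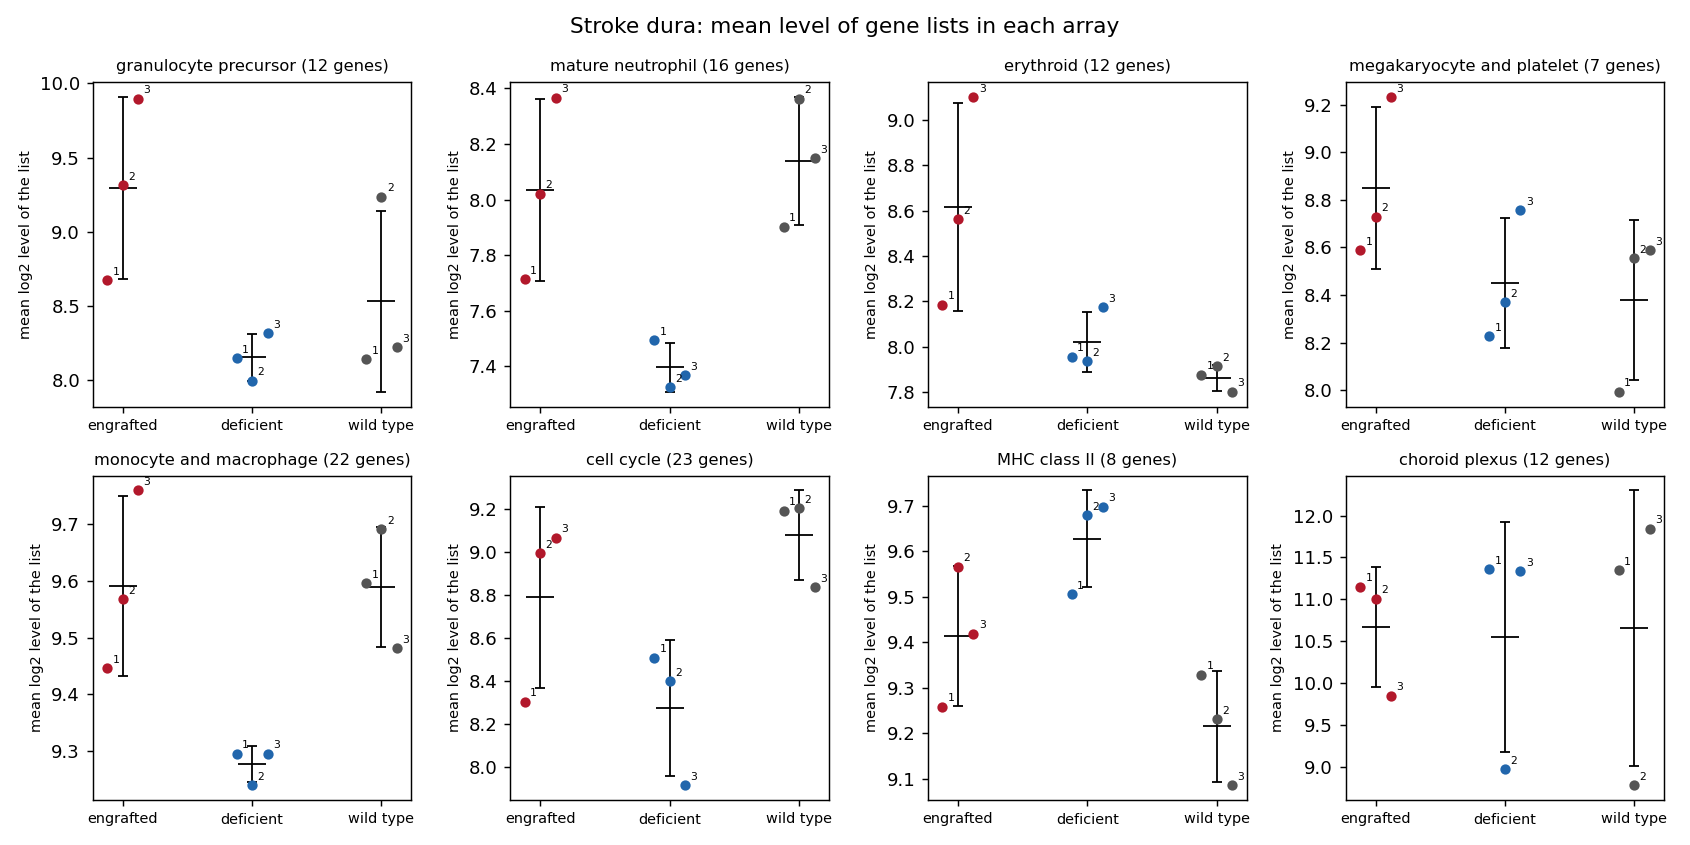
Mean log2 level of 8 gene lists in each stroke array, numbered as in the titles, with the mean and SD of each group of 3. Engrafted array 3 is highest in the granulocyte precursor, neutrophil, erythroid and platelet lists, at 9.90, 8.37, 9.10 and 9.23, and single arrays stand low in the choroid plexus list.

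The mediators that the study is known for, interleukin 6 and the monocyte-attracting chemokine Ccl7, did not pass between engrafted and deficient stroke dura. These values are RNA in whole dura 2 days after stroke, and not passing does not show equal levels. Il6 had 4.54, 6.25 and 4.87 in engrafted arrays, against 4.86, 4.54 and 4.46 in deficient arrays and 6.30, 5.14 and 8.15 in wild-type arrays. Neither the engrafted nor the deficient mean was shown above background, and the estimate was 0.60 with a 95% interval of -0.52 to 1.73 (adjusted p = 0.854). Ccl7 had 8.20, 8.74 and 8.81 in engrafted, 8.21, 8.10 and 7.81 in deficient and 9.93, 9.35 and 9.03 in wild-type arrays. Its difference from deficient dura was 0.55 ± 0.21 (adjusted p = 0.775) and that from wild type -0.85 ± 0.21 (adjusted p = 0.0986). Deficient against wild-type stroke dura, which shares the deficient arrays, gave -1.40 for Ccl7 (adjusted p = 0.00182). Of 18 CC chemokines and of 29 cytokines 0 passed, with medians of 0.03 and 0.01. Ccl17 and Ccl22, ligands of the receptor Ccr4, had -0.29 ± 0.10 and -0.25 ± 0.09, the eosinophil attractant Ccl24 -0.40 ± 0.14 and the macrophage chemokine Ccl3 0.42 ± 0.14, with adjusted p of 0.749 to 0.775. Of 17 other chemokines 0 passed, and Cxcl13, which attracts B cells, had 9.28, 9.79 and 9.56 in engrafted and 8.90, 8.97 and 8.75 in deficient arrays (0.67 ± 0.27, adjusted p = 0.775). The stromal chemokines Cxcl12 and Cxcl14 differed by 0.23 ± 0.09 and 0.41 ± 0.14.

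Stromal, vascular and brain-derived genes gave no calls beyond Mmp3, where 0.0277% of all probe sets were called. Of 16 meningeal fibroblast genes 0 passed, with a median of 0.04. Aldh1a2, a retinoic acid synthesising enzyme of the meninges, had 11.05, 10.62 and 11.12 in engrafted, 10.51, 10.42 and 10.39 in deficient and 11.65, 11.39 and 11.21 in wild-type arrays, with 0.49 ± 0.15 (adjusted p = 0.749). Crabp2, which binds retinoic acid, had 0.29 ± 0.13. Of 16 adhesion genes 0 passed, with the endothelial selectin Sele at 0.34 ± 0.09 and the leukocyte integrin chain Itgb2 at 0.46 ± 0.15 (adjusted p = 0.568 and 0.749). Of 9 lymphatic vessel genes 0 passed, with the receptor Lyve1 at 0.52 ± 0.15 and the transcription factor Prox1 at 0.40 ± 0.12. Without engrafted array 2, 1 of them passed, beside 10 of all 21640 probe sets. It was the secreted glycoprotein Reln (adjusted p = 0.0468), named after its value was seen. Bone and osteoclast genes had 0 of 17 passing, with the osteocyte peptidase Phex at 0.90 ± 0.20 and the bone phosphatase Alpl at -0.28 ± 0.09 (adjusted p = 0.417 and 0.749). Of 9 astrocyte genes 0 passed, with a median of 0.41. Gfap, the filament protein of reactive astrocytes, had 10.37, 9.71 and 10.93 in engrafted and 9.44, 9.42 and 9.58 in deficient arrays, with 0.86 ± 0.21 (adjusted p = 0.441), and it passed without engrafted array 2 (adjusted p = 0.0094). The astrocyte list mean itself was 10.92, 10.49 and 11.03 in engrafted and 10.30, 10.60 and 10.66 in deficient arrays, and the neuron list values given above were likewise lowest of the engrafted arrays in array 2. How much brain tissue on the membrane adds to these values was not tested. Of 14 adipocyte genes 0 passed, and the median difference was 0.015. In engrafted dura 7 were higher and 7 lower, beside 9024 higher and 12616 lower of all 21640 probe sets. The largest difference of that list was that of the fat hormone Adipoq, 0.72 ± 0.18 (adjusted p = 0.461). Adipoq had 7.30, 6.40 and 6.99 in engrafted and 6.15, 6.24 and 6.15 in deficient arrays, and it passed without engrafted array 2 (adjusted p = 0.0252).

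Further fixed lists held no call in this comparison, where 0.0277% of all probe sets were called. Of 16 interferon-stimulated genes 0 passed and 5 were higher without overlap (3.81% of all probe sets), with a median of 0.19, and the antiviral Rsad2 had 8.74, 8.66 and 9.41 in engrafted and 8.10, 7.94 and 8.61 in deficient arrays (0.72 ± 0.21, adjusted p = 0.687). Of 14 complement genes 0 passed, with the component C4b at 0.32 ± 0.09 and the anaphylatoxin receptor C3ar1 at 0.27 ± 0.12, both without overlap. C4b had 10.37, 10.18 and 10.39 in engrafted and 10.00, 10.00 and 9.99 in deficient arrays. Glucocorticoid-induced genes had 0 of 13 passing and a median of -0.15, with Klf9, a glucocorticoid-responsive transcription factor, at -0.24 ± 0.07 and Tsc22d3, known as GILZ, at -0.28 ± 0.13. The clock gene Per1, also induced by glucocorticoids, had 8.69, 9.21 and 9.31 in engrafted and 9.24, 9.68 and 9.69 in deficient arrays (-0.47 ± 0.17, adjusted p = 0.752), and -0.46 ± 0.17 in naive dura. Cartilage and tendon genes had 0 of 15 passing and a median of -0.17. Comp, a cartilage matrix protein, had 9.15, 9.37 and 9.55 in engrafted, 9.77, 10.02 and 9.40 in deficient and 8.51, 8.36 and 8.09 in wild-type arrays. It differed from deficient dura by -0.37 ± 0.18 (adjusted p = 0.798) and rose against wild-type dura by 1.04 (adjusted p = 0.0194). Of 17 eicosanoid genes 0 passed, with the lipoxygenase Alox12 at 0.46 ± 0.21. Of 13 pineal genes 0 passed, with -0.27 as the median, among them the transcription factor Crx at -0.62 ± 0.27, which was highest in deficient array 2.

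Of the 41 gene lists examined, 4 had a member past the threshold in this comparison and 37 had 0, beside 6 of all 21640 probe sets (0.0277%). The 4 were the granule, receptor, metalloproteinase and basophil lists, the last through Fcer1a, which it shares with the receptor list. At so small a share of calls, 0 in a list does not set its members apart from other genes. Medians were above 0 in 28 lists and below 0 in 13.

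Engrafted stroke dura was also set beside wild-type stroke dura, a comparison that shares the engrafted arrays. It called 89 probe sets (0.411%), 21 higher and 68 lower in engrafted dura, and 0 of the 39 mast cell genes was among them. At so small a share of calls, 0 of 39 does not show that these genes were at the wild-type level. Estimates for Mcpt2, Cpa3 and Mcpt4 were 0.55, 0.71 and 0.40 with 95% intervals of -0.21 to 1.30, -0.08 to 1.49 and -0.38 to 1.18. Among 17 keratinocyte and epithelial barrier genes 6 fell against wild type, beside 0.314% of all probe sets, and 0 passed against deficient dura. Krtdap, a keratinocyte differentiation peptide, had 7.29, 7.23 and 6.42 in engrafted, 6.79, 5.89 and 6.20 in deficient and no less than 8.28 in any of the wild-type arrays. Its difference from wild type was -1.74 (adjusted p = 0.00297). Msln, mesothelin, had 9.93, 9.41 and 9.72 in engrafted, 9.55, 8.73 and 9.50 in deficient and 10.81, 10.62 and 11.22 in wild-type arrays, with -1.20 against wild type (adjusted p = 0.0148). Deficient against wild-type stroke dura called 565 probe sets (2.61%), 139 higher and 426 lower. The engrafted comparison with wild type called 0 with only the compared arrays in the limma fit (2257 at an unadjusted p under 0.05) and 29 to 333 when 1 array was left out, with 333 without engrafted array 2 and 29 without wild-type array 3.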

How the data were processed

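Dura of 18 mice was measured with 1 Affymetrix array each, in 6 groups of 3 separate animals taken from the titles. The authors deposited log2 values for 34760 probe sets. The submitters' processing notes name RMA, affy and R 3.0.0 without their roles, and the values ran from 3.42 to 14.06 with nearly equal array medians. Such normalisation puts arrays on 1 distribution, so a shift shared by all genes could not be seen. No scan date or other batch is given in the sources used here.

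Gene names come from the platform annotation. The 21640 probe sets with exactly 1 symbol (19937 genes) were tested, while 1321 with several symbols and 11799 not annotated were left out. Identifiers of 21553 were found in the RefSeq table. For the 954 genes with several probe sets, the one with the highest mean was given. limma 3.58.1 in R 4.3.3 fitted 1 mean per group over all 18 arrays, with eBayes (12 residual and 3.41 prior degrees of freedom) and Benjamini-Hochberg adjustment over the tested probe sets within each of 5 contrasts, at a threshold of 0.05. The fit was also run on simulated data with independent noise in each array. Deviations of the real arrays were correlated, so that run gives no support to the calls. An exact permutation test of 3 against 3 arrays cannot go below p = 0.1 and was not used. Where groups share a replicate number in the titles, a fit with that number as a block was an alternative.

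The genes named are Kit, each measured gene of the mast cell lists, the 15 higher and 15 lower genes with the largest change among those past the threshold, filled up by the smallest p, up to 4 genes of each described list, Il6, Ccl7, and genes past the interaction threshold. The comparison, the 41 lists and the named members were chosen with earlier results of these data known. Alternatives left out each array, added the replicate block, array weights or tissue covariates, or changed the filter, scaling, variance model, arrays in the fit, probe sets tested or minimum change (1.5-fold). Promoter letters were read from the RefSeq table with Python 3.11.15.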

Additional observations from a re-analysis of the deposited data

Results flagged for a closer look

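The engrafted minus deficient difference of Mmp3 was not the same after stroke as in naive dura, by the test of the difference itself. It was 1.94 ± 0.18 after stroke and -0.20 ± 0.18 in naive dura (SE, n = 3 each), which gives an interaction of 2.14 with a 95% interval of 1.60 to 2.67 (limma adjusted p = 0.00683). All 3 engrafted stroke arrays lay above all 3 deficient stroke arrays. The interaction ranged from 1.95 to 2.39 when 1 array was left out and passed each time, and it did not pass with only the compared arrays in the fit (adjusted p = 0.201) or with a minimum change of 1.5-fold (adjusted p = 0.164).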

How the results depend on the processing

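Between engrafted and deficient stroke dura 6 probe sets passed, 4 to 39 with 1 array left out, 14 with the choroid plexus and neuron covariates, and 4 to 8 under the other alternatives. In naive dura 4 passed, 3 to 7 with 1 array left out, 8 with array weights and 0 with only the compared arrays. In the interaction 1 passed, and 1 with any array left out, 2 with array weights, 3 with covariates, and 0 with only the compared arrays or with a minimum change of 1.5-fold. Engrafted against wild-type stroke dura gave 89, with 29 to 333 with 1 array left out, 57 with the replicate block, 199 with array weights, 0 with only the compared arrays, 4 with the minimum change and 14 with covariates. Deficient against wild-type stroke dura gave 565, with 226 to 593 with 1 array left out, 1743 with array weights, 222 with only the compared arrays, 19 with the minimum change and 344 with covariates. The causes were not tested. Same-numbered engrafted and deficient stroke arrays had deviations that correlated with r of -0.10, -0.23 and 0.04, so the numbers were not taken to pair the mice. Between differently numbered arrays r ran from -0.50 (engrafted 3, deficient 1) to 0.60 (engrafted 2, deficient 1). With the replicate block 6 probe sets passed between engrafted and deficient stroke dura, the same 6, and 4 in naive dura, 1 in the interaction and 424 between deficient and wild-type stroke dura.

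Among mast cell genes with small differences that did not pass, some changed sign. With 1 array left out, Tpsg1 ranged from -0.097 to 0.057, Gzmb from -0.081 to 0.0087, Cd63 from -0.077 to 0.049, Siglecf from -0.028 to 0.16, Rab27b from -0.049 to 0.21, Kitl from -0.046 to 0.10 and Maob from -0.61 to 0.16. Mcpt1 had 0.017 after a second quantile normalisation. After that normalisation Tpsg1 had 0.022 and Gzmb 0.0098. Array weights gave Tpsg1 0.036, Cd63 0.038, Rab27b -0.066 and Maob 0.39, and covariates gave Siglecf -0.0024. Transcripts below the array lower quartile, such as Il6, have no shown level in these groups.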

Other observations

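Among the 13120 probe sets with no symbol or several, fitted together with the tested ones, 0 passed between engrafted and deficient stroke dura by limma, and 730 had an unadjusted p under 0.05.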
